A study of Mus musculus with 8 samples.

Results

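The genes described here are 35 that act in the uptake, activation, transport and mitochondrial oxidation of fatty acids, in lipid droplets, or as classic targets of the PPAR nuclear receptors. They were taken by gene symbol from a fixed list, all 35 had a row among the 24848 genes of the deposited tables, and all 35 were among the 13569 genes that passed the filter on low counts. Their RNA was measured in tibialis anterior, a fast muscle of the mouse shin, after hind limb ischemia, an operation that interrupts blood flow to one leg. The praliciguat group held 4 libraries from male Leprdb/db mice that ate chow with 75 ppm praliciguat, a stimulator of the nitric oxide receptor soluble guanylate cyclase, a content meant to match the peak in plasma after oral dosing at 10 mg/kg/day. The placebo group held 4 libraries from male Leprdb/db mice on the control diet without the compound. Both groups carried the Leprdb/db genotype, which removes a working leptin receptor and makes mice obese and diabetic, both were operated on, both were on their diet for 31 days from day -3, and both were sampled 28 days after surgery. Age and strain background are not given in the labels, and all 8 libraries are from ischemic muscle, so neither ischemia nor the genotype can be compared. Whether each library came from its own mouse is not stated, so a p-value here reflects only how far these libraries vary.

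Muscle takes fatty acids from lipoproteins in blood vessels, binds them in the cytosol and links them to coenzyme A. The carnitine shuttle carries the long chains into mitochondria, a step held back by malonyl-CoA. There each turn of beta-oxidation removes an acetyl unit through a dehydrogenase, a hydratase, a second dehydrogenase and a thiolase, with auxiliary enzymes for unsaturated chains, and electrons pass through the electron transfer flavoprotein to the respiratory chain. Slow and fast oxidative fibres rely on this route more than the fastest fibres do. Many of its genes are targets of PPAR, ERR and PGC-1 regulators, which fatty acids and fasting activate.

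The question was whether praliciguat changed the RNA of this pathway. Between the groups as a whole edgeR and limma-voom called none of the 35 genes and DESeq2 called 1, Eci1. In edgeR, with a call at an adjusted p under 0.05, 0 of the 35 were called in either direction, and the same test called 0% of all tested genes. At an unadjusted p under 0.05, 2 of the 35 were lower with praliciguat and 0 were higher, where 3.78% of all tested genes were lower and 1.95% higher (5.73% together). DESeq2 called 1 of the 35 lower, where it called 0.757% of all genes lower and 0.0886% higher, and limma-voom called 0 of the 35, where it called 0.0147% of all genes lower. At an unadjusted p under 0.05 DESeq2 and limma-voom each held 3 of the 35, against 5.18% of all genes in DESeq2 and 6.05% in limma-voom. The 35 log2 fold changes had a median of -0.074, against 0.02 over all tested genes, and 21 of the 35 lay below 0, where 44.8% of all tested genes did. What stood out was the spread among the praliciguat libraries. In 22 of the 35 genes praliciguat replicates 3 and 4 were the 2 lowest of the 8 libraries, a pattern found in 8.39% of all tested genes, and in 11 praliciguat replicates 1 and 2 were the 2 highest, found in 8.88%. Praliciguat replicates 3 and 4 were the 2 highest in 3 of the 35 (Angptl4, Plin2 and Dgat1), found in 8.11%.

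**Figure D1:**
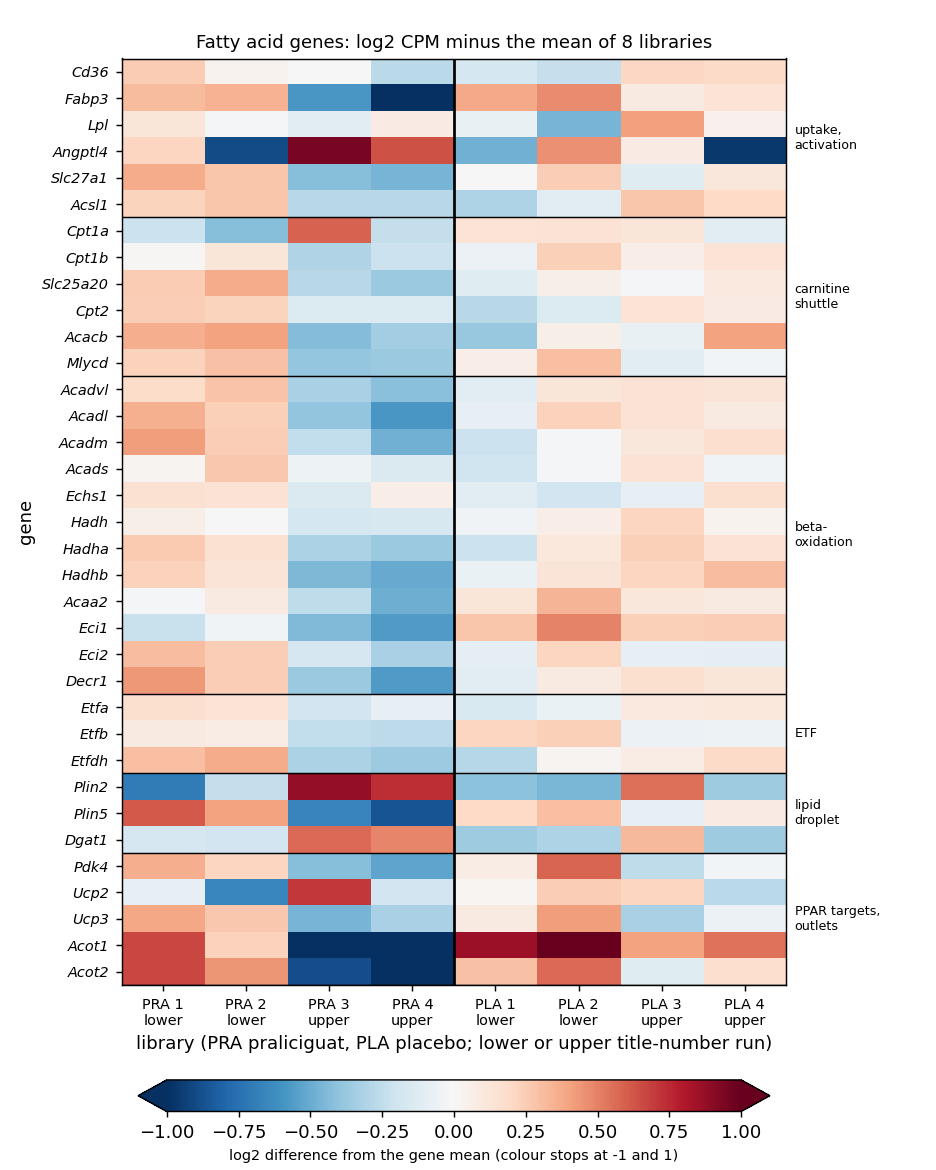
Level of each of the 35 genes in each library, as log2 CPM minus the gene's mean over the 8 libraries (colour), with praliciguat libraries left of the line and placebo libraries right, and genes ordered by role. Praliciguat replicates 3 and 4 are blue in most rows and praliciguat replicates 1 and 2 red, while Plin2, Dgat1 and Angptl4 are highest in praliciguat replicates 3 and 4.

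Those libraries differ by a label. Titles number the samples in 2 separate stretches, here called the lower and the upper run. Replicates 1 and 2 of each group belong to the lower run, replicates 3 and 4 to the upper. What the runs stand for is not given. The libraries were alike in the sum of 5 skeletal muscle markers, among them creatine kinase and skeletal actin. It was 84831 to 95387 TPM with praliciguat and 88080.0 to 94238 TPM in placebo. Myoglobin (Mb), 1 of the 5, was less even and is given with the fibre markers below. In summed TPM, markers of slow fibres were lower in every praliciguat library than in any placebo library. The sums of fat cell and of macrophage markers were highest in praliciguat replicate 3, though not every single marker followed its sum. Over all genes praliciguat replicate 3 was far from replicates 1 and 2, with a chi-square per degree of freedom of 123 and 136. Against praliciguat replicate 4 it gave 60.6, within the 21.9 to 72.8 of the other pairs of one group. Total expected counts were 27271020 to 31896205 in praliciguat libraries and 21099764 to 29635817 in placebo libraries. Levels below are CPM, counts scaled to the TMM-adjusted library size. Levels of different genes are compared in TPM, the authors' transcript abundances scaled for length as well. Fold changes are praliciguat over placebo on the log2 scale with the standard error (SE) of the edgeR fit. In whole muscle, fewer cells of a type and less RNA per cell cannot be told apart.

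Of the 35 genes, 29 have a promoter in the RefSeq table of GRCm38.p6, from 250 bases before to 50 after the gene start. These promoters were searched on both strands for 7 motifs. The PPAR element, 2 half-sites AGGTCA in direct repeat 1 base apart, was in 0 of the 29 and in 0.0481% of all 27025 genes with a promoter, and the ERR element TNAAGGTCA in 0 of the 29 and in 1.43%. The half-site AGGTCA, which lies inside both of these, was in 9 of the 29 (31.0%) and in 18.1% of all genes. The GC box GGGCGG was in 20 of the 29 (69.0%) and in 38.2%, the CCAAT box CCAAT in 16 (55.2%) and in 41.1%, the E-box CACGTG in 2 (6.9%) and in 8.09%, and the NRF1 core, a palindrome given by name only, in 1 (3.45%) and in 1.07%. A gene was counted when any of its promoters held a match. The shares over all genes include genes that did not pass the filter on low counts, as all 35 did. Shares over the tested genes alone were not taken. A match is a description of the letters, not of a bound site. The 3 stretches before gene starts printed here run 5′ to 3′, with matches to the GC box and the half-site in capitals. The first is that of Eci1, which had the lowest p between the groups of the 35. The second is that of Plin5. It had the lowest p of the 35 in the test of whether the group difference was unlike between the runs (edgeR adjusted p = 0.145). The third lies between the divergent starts of Hadha and Hadhb, the subunits of one enzyme. The Eci1 stretch is chr17:24426433-24426682 on the plus strand, that of Plin5 chr17:56117607-56117798 on the minus strand, and that of Hadha and Hadhb, read on the plus strand towards Hadhb, chr5:30154981-30155252. By GENCODE, 42 bases of the first and 187 bases of the last also lie in exons of other transcripts of the same genes.
Eci1: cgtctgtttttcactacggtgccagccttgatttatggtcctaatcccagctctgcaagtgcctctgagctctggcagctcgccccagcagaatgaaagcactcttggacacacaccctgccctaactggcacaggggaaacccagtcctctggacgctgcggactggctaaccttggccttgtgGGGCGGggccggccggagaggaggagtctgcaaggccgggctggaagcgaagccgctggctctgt
Plin5: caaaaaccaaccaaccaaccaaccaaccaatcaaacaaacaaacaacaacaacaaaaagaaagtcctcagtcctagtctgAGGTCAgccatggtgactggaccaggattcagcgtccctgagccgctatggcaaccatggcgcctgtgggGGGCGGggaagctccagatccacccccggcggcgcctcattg
Hadha and Hadhb: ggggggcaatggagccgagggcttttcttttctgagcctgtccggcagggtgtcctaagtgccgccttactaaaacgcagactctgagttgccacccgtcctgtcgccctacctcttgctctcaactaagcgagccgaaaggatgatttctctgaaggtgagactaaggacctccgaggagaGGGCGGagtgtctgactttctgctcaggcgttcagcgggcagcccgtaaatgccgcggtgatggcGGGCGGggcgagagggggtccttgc
The first stretch holds 1 GC box, the second 1 GC box and 1 half-site, and the third 2 GC boxes and no half-site.

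Uptake and activation. None of the 6 genes of uptake and activation passed the test, and 3 had a fold change above 0 and 3 below. Fabp3, the fatty acid binding protein of heart and muscle cytosol, was the most abundant of the 35 at 1819 TPM on average over the 8 libraries. It had 555, 569, 298 and 199.9 CPM in praliciguat replicates 1 to 4, against 581, 619, 476 and 490.2 CPM in placebo replicates 1 to 4. Praliciguat replicates 3 and 4 were below every other library, while replicates 1 and 2 lay within the placebo range, so the groups overlapped (log2 fold change -0.42 ± 0.31 SE, edgeR adjusted p = 0.984). Fabp3 shares exon bases with Zcchc17 on the opposite strand (9.84% of its exon bases), which was far lower at 36.7 to 41.7 TPM. Of the stretches of 50 bases in its transcripts, 29.2% also occur in the pseudogene Fabp3-ps1, which was not analysed here, so its level is uncertain to that extent. Cd36, the membrane protein that carries fatty acids into the cell, had 846, 727, 708 and 589 CPM in praliciguat replicates 1 to 4, against 628, 605, 822 and 810.4 CPM in placebo replicates 1 to 4. Both its highest and its lowest library were praliciguat ones, with means of 718 ± 105 CPM with praliciguat and 716 ± 116 CPM in placebo (SD, n = 4 each). Lpl, lipoprotein lipase, which frees fatty acids from triglyceride in the capillary, had 1373, 1256, 1171 and 1337 CPM in praliciguat replicates 1 to 4, against 1202, 915, 1678 and 1305 CPM in placebo replicates 1 to 4. Placebo replicate 3 was the highest and placebo replicate 2 the lowest, so the praliciguat libraries lay inside the placebo range.

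Angptl4, a secreted inhibitor of lipoprotein lipase and a PPAR target, had 41.0, 19.0, 68.4 and 54.8 CPM in praliciguat replicates 1 to 4, against 25.3, 48.5, 37.4 and 18.1 CPM in placebo replicates 1 to 4. Its highest libraries were praliciguat replicates 3 and 4, its lowest praliciguat replicate 2 and placebo replicate 4, and the groups overlapped (log2 fold change 0.50 ± 0.41 SE, edgeR adjusted p = 0.984). Acsl1, the main long-chain acyl-CoA synthetase of muscle, averaged 611 ± 128 CPM with praliciguat and 621 ± 115 CPM in placebo, and Slc27a1, the fatty acid transport protein FATP1, averaged 166 ± 50.4 CPM with praliciguat and 175 ± 19.3 CPM in placebo (SD, n = 4 each). The fold changes of Acsl1 and Slc27a1 were -0.023 and -0.074.

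Carnitine shuttle and malonyl-CoA. None of the 6 genes of the shuttle and its control passed the test, and their fold changes lay between -0.18 and 0.099. Cpt1b, the muscle isoform of carnitine palmitoyltransferase 1 and the entry step of the shuttle, had 573, 619, 462 and 489.7 CPM in praliciguat replicates 1 to 4, against 545, 672, 595 and 624 CPM in placebo replicates 1 to 4. Praliciguat replicates 3 and 4 were below all placebo libraries and replicates 1 and 2 among them (log2 fold change -0.18 ± 0.12 SE, edgeR adjusted p = 0.984). Cpt1b overlaps the read-through gene Gm44502 on the same strand over 81.4% of its exon bases, and 78.6% of its stretches of 50 bases also occur there. Gm44502 was given only 0 to 71.1 expected counts per library. That count is itself a product of how shared reads were divided, so it cannot show that the division was right. Cpt1a, the liver isoform of the same enzyme, was low at 8.53 TPM, against 374 TPM for Cpt1b. Its share of the TPM of both isoforms was 2.37 ± 1.1% with praliciguat and 2.16 ± 0.277% in placebo (SD, n = 4; exact two-sided permutation p = 0.886, and 0.943 after adjustment over 4 shares).

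Cpt2, the inner membrane partner of Cpt1b, had 134, 132, 103 and 103 CPM in praliciguat replicates 1 to 4, against 93.7, 103, 124 and 120.2 CPM in placebo replicates 1 to 4. Praliciguat replicates 1 and 2 were the highest of the 8 libraries, replicates 3 and 4 level with placebo replicate 2, and the groups overlapped (log2 fold change 0.099 ± 0.14 SE, edgeR adjusted p = 0.984). Slc25a20, the carrier that exchanges acylcarnitine for carnitine, averaged 166 ± 42.2 CPM with praliciguat and 163 ± 10.9 CPM in placebo (SD, n = 4 each). Of the enzymes that set malonyl-CoA, Acacb, the acetyl-CoA carboxylase at the mitochondrial surface that makes it, averaged 387 ± 117 CPM with praliciguat and 382 ± 85.5 CPM in placebo, and Mlycd, the decarboxylase that removes it, averaged 146 ± 37.1 CPM with praliciguat and 155 ± 19.4 CPM in placebo (SD, n = 4 each). The SD of both was larger with praliciguat than in placebo, and neither difference exceeded it.

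Beta-oxidation enzymes. Of the 12 enzymes of beta-oxidation, 0 passed in edgeR, 4 had a fold change above 0 and 8 below, and both genes at an unadjusted p under 0.05, Eci1 and Acaa2, were lower with praliciguat. Eci1, the mitochondrial isomerase that shifts the double bond of unsaturated chains so that oxidation can go on, had 113, 129, 97.6 and 89.3 CPM in praliciguat replicates 1 to 4, against 160.5, 186, 156 and 157 CPM in placebo replicates 1 to 4. Every praliciguat library was below every placebo one, with means of 107 ± 17.7 CPM with praliciguat and 165 ± 14.5 CPM in placebo (SD, n = 4 each). Of the 35 it was the 1 without overlap, where 3.86% of all tested genes were so, 2.54% lower and 1.32% higher with praliciguat. Its log2 fold change was -0.62 ± 0.13 SE (edgeR unadjusted p = 0.000918, edgeR adjusted p = 0.259), and 47 of the 13569 tested genes had a lower p. DESeq2 called it lower (log2 fold change -0.61 ± 0.15 SE, DESeq2 adjusted p = 0.0084), limma-voom did not (limma-voom adjusted p = 0.225). The difference lay below 0 in both runs, at -0.51 in the lower and -0.74 in the upper. Eci1 lies on chromosome 17 from 24426683 to 24439316 in RefSeq coordinates of GRCm38, the assembly of mm10.

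Acaa2, a thiolase that carries the last step of a turn, had 279, 302, 238 and 202 CPM in praliciguat replicates 1 to 4, against 309, 358, 307 and 302 CPM in placebo replicates 1 to 4. Praliciguat replicate 2 was level with placebo replicate 4, so the groups just overlapped (log2 fold change -0.32 ± 0.14 SE, edgeR unadjusted p = 0.041, edgeR adjusted p = 0.822). The difference was -0.20 in the lower and -0.48 in the upper run. Acadl, the long-chain acyl-CoA dehydrogenase and the most abundant of the 12 enzymes at 773 TPM, had 968, 893, 576 and 506 CPM in praliciguat replicates 1 to 4, against 714, 885, 834 and 803 CPM in placebo replicates 1 to 4. The praliciguat libraries took both ends of its range, with replicates 1 and 2 the highest and replicates 3 and 4 the lowest of all 8.

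Hadha and Hadhb encode the subunits of the trifunctional protein, which carries the last steps for long chains. Hadha had 965, 896, 650.0 and 623 CPM in praliciguat replicates 1 to 4, against 697, 869, 952 and 895 CPM in placebo replicates 1 to 4. Hadhb had 244, 227, 152 and 146 CPM in praliciguat replicates 1 to 4, against 198, 228, 240.4 and 258 CPM in placebo replicates 1 to 4. In both genes praliciguat replicates 3 and 4 were the 2 lowest libraries, while praliciguat replicates 1 and 2 lay among the placebo libraries for Hadhb. For Hadha praliciguat replicate 1 was above every placebo library and replicate 2 above all but placebo replicate 3. Of the stretches of 50 bases of Hadhb, 19.7% occur in other genes, mostly in Gm13910, which was not analysed here. The share of Hadha in the TPM of both was 67.6 ± 0.957% with praliciguat and 65.2 ± 1.44% in placebo (SD, n = 4; exact two-sided permutation p = 0.0857, and 0.343 after adjustment over 4 shares).

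The other dehydrogenases, sorted by chain length, were Acadvl for very long chains with a log2 fold change of -0.11 ± 0.17, Acadm for medium chains with 0.005 ± 0.20 and Acads for short chains with 0.054 ± 0.12 (SE). Acadvl shares 42.9% of its exon bases with Dvl2 on the opposite strand, which was at 2.86 to 4.67 TPM against 507 TPM for Acadvl. Echs1, the short-chain hydratase, had 0.11 ± 0.11 and Hadh, the dehydrogenase for shorter chains, -0.14 ± 0.10 (SE). Of the other auxiliary enzymes for unsaturated chains, Eci2, an isomerase like Eci1, averaged 114 ± 24.0 CPM with praliciguat and 110.3 ± 12.3 CPM in placebo, and Decr1, the dienoyl-CoA reductase, averaged 239 ± 77.6 CPM with praliciguat and 252 ± 19.9 CPM in placebo (SD, n = 4 each). Their fold changes were 0.053 and -0.075, against -0.62 for Eci1, and a test of these fold changes against each other was not run.

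**Figure D2:**
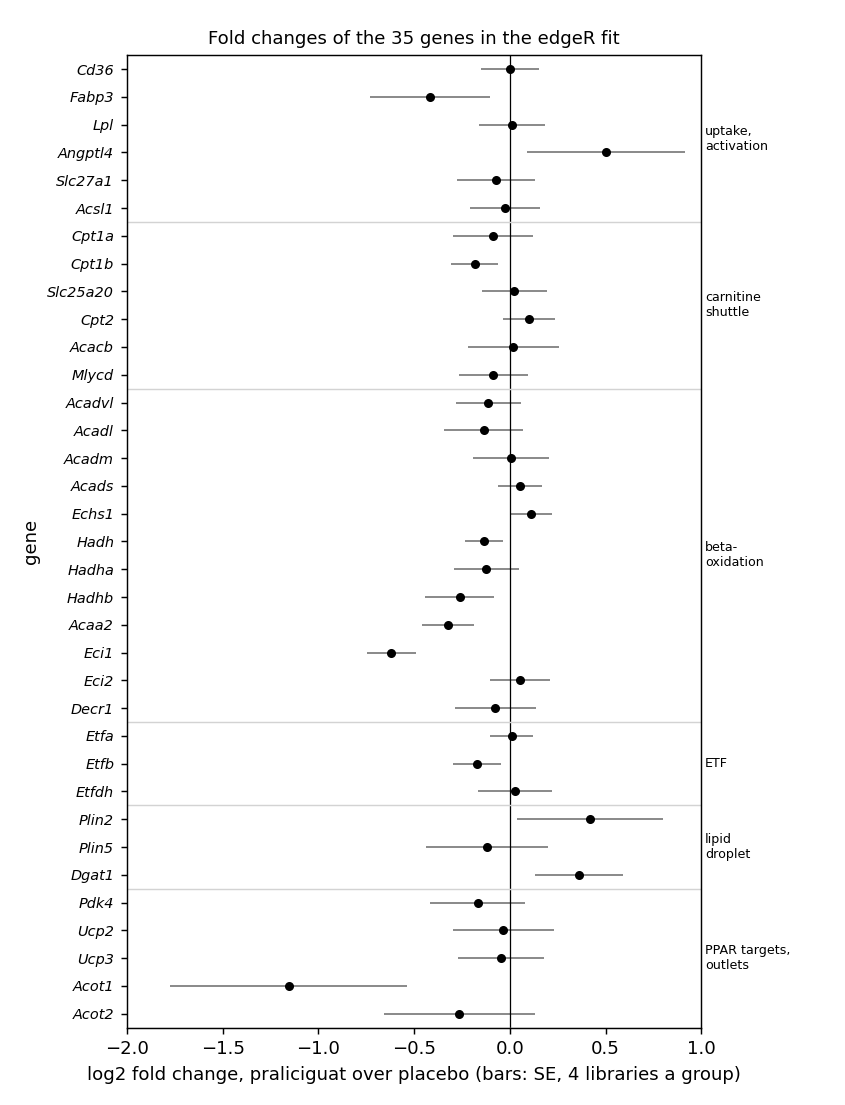
Log2 fold change of praliciguat over placebo for each of the 35 genes from the edgeR fit, with bars for the SE (4 libraries a group), ordered by role. Most points lie within 1 SE of 0, Eci1 lies at -0.62, and Acot1 has the longest bar at -1.15 ± 0.62.

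Electron transfer flavoprotein. The flavoprotein that takes electrons from the acyl-CoA dehydrogenases is made of the products of Etfa and Etfb, and Etfdh passes those electrons to ubiquinone. None of the 3 passed the test. Etfb had 295, 291, 233 and 231 CPM in praliciguat replicates 1 to 4, against 322, 326, 266 and 268 CPM in placebo replicates 1 to 4. Praliciguat replicates 3 and 4 were the 2 lowest, and in both groups the libraries of the lower run were above those of the upper run (log2 fold change -0.17 ± 0.13 SE, edgeR adjusted p = 0.984). Etfb overlaps Gm45233, not analysed here, on the same strand over 53.0% of its exon bases, and 44.8% of its stretches of 50 bases occur in other genes, so its counts are uncertain. Etfdh had 306, 323, 200.2 and 193 CPM in praliciguat replicates 1 to 4, against 204, 253, 262 and 285 CPM in placebo replicates 1 to 4. It spanned its whole range within praliciguat, from 193 to 323 CPM. Etfa averaged 245 ± 28.4 CPM with praliciguat and 243 ± 20.8 CPM in placebo (SD, n = 4 each).

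Lipid droplets. The 3 lipid droplet genes did not follow one course, and none passed the test. Plin5, the droplet coat protein of oxidative tissues that sits between droplets and mitochondria, had 98.8, 85.7, 40.9 and 35.6 CPM in praliciguat replicates 1 to 4, against 74.1, 79.8, 61.2 and 68.4 CPM in placebo replicates 1 to 4. Praliciguat replicates 1 and 2 were the 2 highest and replicates 3 and 4 the 2 lowest of all 8 libraries, with a praliciguat mean of 65.2 ± 31.7 CPM against a placebo mean of 70.9 ± 7.98 CPM (SD, n = 4). Plin2, the coat protein of droplets in most cell types, had 28.3, 38.9, 84.6 and 76.5 CPM in praliciguat replicates 1 to 4, against 34.5, 33.5, 67.1 and 35.8 CPM in placebo replicates 1 to 4. It was highest in praliciguat replicates 3 and 4, the lowest for Plin5, followed by placebo replicate 3. Dgat1, which makes triglyceride, had 15.5, 15.3, 25.9 and 24.5 CPM in praliciguat replicates 1 to 4, against 13.6, 14.1, 21.9 and 13.6 CPM in placebo replicates 1 to 4, with the same 3 libraries highest (log2 fold change 0.36 ± 0.23 SE, edgeR adjusted p = 0.984). Plin2 took 22.9, 32.1, 68.2 and 69.0% of the TPM of Plin2 and Plin5 in praliciguat replicates 1 to 4, against 32.5, 30.3, 53.3 and 35.2% in placebo replicates 1 to 4 (exact two-sided permutation p = 0.4, and 0.8 after adjustment over 4 shares).

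Summed adipocyte markers were highest in the libraries where Plin2 and Dgat1 were highest, while summed macrophage markers stood out mainly in praliciguat replicate 3. The summed TPM of 7 adipocyte markers was 704, 363, 1461 and 1073 TPM in praliciguat replicates 1 to 4, against 268, 321, 916 and 239 TPM in placebo replicates 1 to 4. The same 3 libraries were the highest. All 7 adipocyte markers had a fold change above 0, and Adipoq, which defines fat cells, was at 91.5, 74.9, 268 and 248 CPM in praliciguat replicates 1 to 4, against 50.2, 53.6, 177 and 41.9 CPM in placebo replicates 1 to 4. The summed TPM of 7 macrophage markers was 173, 102, 1286 and 254 TPM in praliciguat replicates 1 to 4, against 207, 142, 413 and 180.5 TPM in placebo replicates 1 to 4, with praliciguat replicate 3 far above the rest. All 7 macrophage markers had a fold change above 0, and none was at 0 in all libraries. Within the lower run, however, 6 of these 7 were lower with praliciguat, and 0 of the 7 passed the test. Over all tested genes 44.8% had a fold change below 0. Lpl, Cd36, Plin2, Ucp2, Cpt1a and Angptl4 are also made by fat cells, macrophages or vessels, and the part of those cells in the levels given here was not tested.

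**Figure D3:**
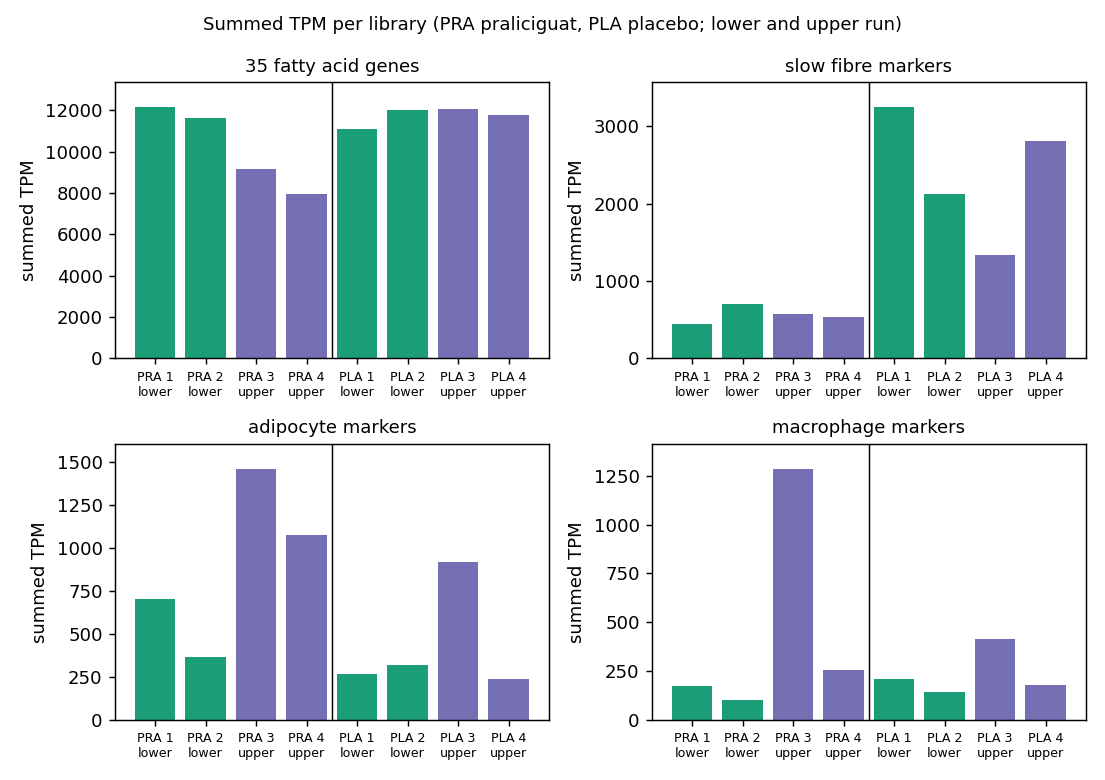
Summed TPM per library of the 35 fatty acid genes and of 3 marker lists, praliciguat libraries left of each line and placebo libraries right, coloured by run of the title numbers. The 35 genes are lowest in praliciguat replicates 3 and 4, slow fibre markers are low in all praliciguat libraries, and adipocyte and macrophage markers peak in praliciguat replicate 3.

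PPAR targets and mitochondrial outlets. The 5 genes of this group all had a fold change below 0 and none passed the test. Pdk4, the kinase that turns off pyruvate dehydrogenase and so spares glucose when fat is burnt, was second in abundance to Fabp3 among the 35 at 1001 TPM. It had 2319, 2093, 1343 and 1247 CPM in praliciguat replicates 1 to 4, against 1896, 2700.2, 1509 and 1763 CPM in placebo replicates 1 to 4. The lower run was above the upper run in both groups, the groups overlapped in the lower run, and both praliciguat libraries were below both placebo libraries in the upper (log2 fold change -0.17 ± 0.25 SE, edgeR adjusted p = 0.984). Acot1, a cytosolic thioesterase that splits long-chain acyl-CoA, was the scarcest of the 35, with as few as 15 expected counts in 1 library, and had 5.61, 4.16, 1.34 and 0.532 CPM in praliciguat replicates 1 to 4, against 6.41, 9.52, 4.67 and 5.15 CPM in placebo replicates 1 to 4. Praliciguat replicates 3 and 4 were the lowest, replicate 2 was also below the placebo range and replicate 1 within it (log2 fold change -1.15 ± 0.62 SE, edgeR adjusted p = 0.956). Acot2, its mitochondrial relative beside it on chromosome 12, averaged 42.4 ± 24.5 CPM with praliciguat and 50.8 ± 10.0 CPM in placebo (SD, n = 4 each). Of the stretches of 50 bases in their transcripts, 19.2% of those of Acot1 and 27.7% of those of Acot2 also occur in other genes, mostly in each other, so how reads were divided between Acot1 and Acot2 is uncertain.

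Ucp3, the uncoupling protein homologue of muscle mitochondria, averaged 382 ± 111 CPM with praliciguat and 394 ± 85.4 CPM in placebo, and Ucp2, its homologue in immune and other cells, averaged 50.1 ± 20.9 CPM with praliciguat and 51.4 ± 8.08 CPM in placebo (SD, n = 4 each). Ucp2 made up 18.5 ± 9.79% of the TPM of both with praliciguat and 17.8 ± 3.77% in placebo (SD, n = 4; exact two-sided permutation p = 0.943, and 0.943 after adjustment over 4 shares). The Ucp2 share was 32.2% in praliciguat replicate 3, where macrophage markers were highest, and 10.0 to 23.4% in the other 7 libraries. With 4 against 4 libraries, the smallest p such an exact test can give is 0.0286.

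**Figure D4:**
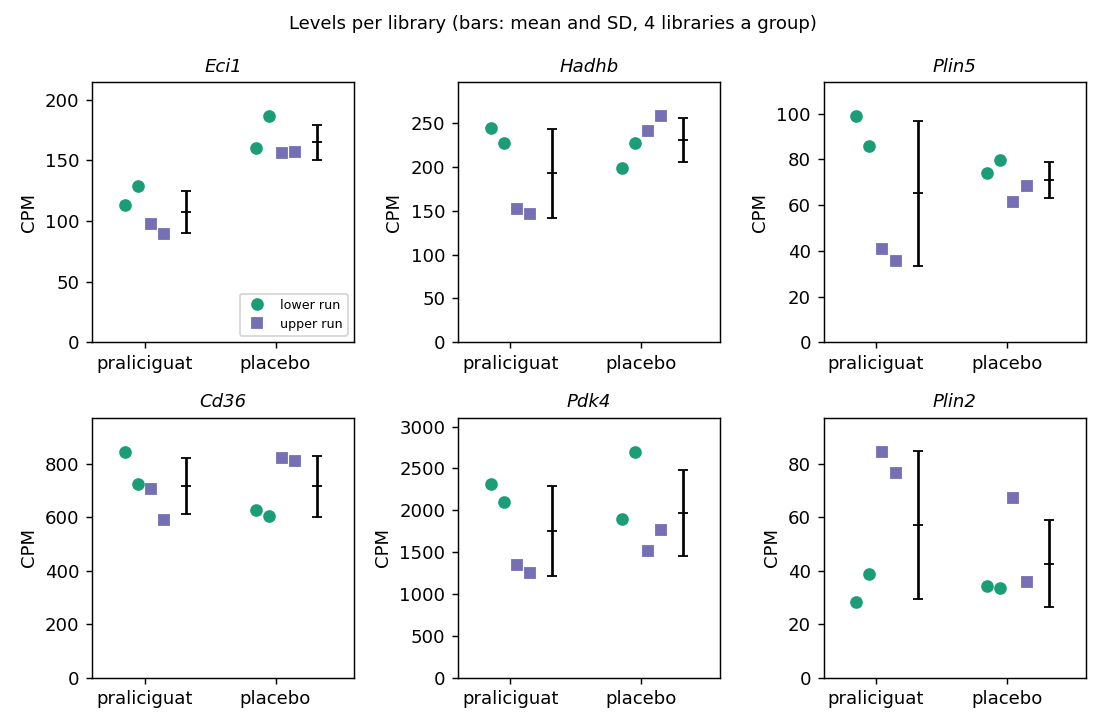
CPM of 6 of the genes in each library, praliciguat left and placebo right, with circles for the lower and squares for the upper run of the title numbers and bars for the mean and SD of 4 libraries. Eci1 separates the groups, Hadhb and Plin5 are lowest in the 2 praliciguat libraries of the upper run, and Plin2 is highest there.

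Praliciguat against placebo within each run. The 35 genes leaned opposite ways in the 2 runs, although the term that tests this passed for none of them. In the lower run 24 of the 35 genes were higher with praliciguat in mean log2 CPM and 11 lower, with a median difference of 0.20, where 51.3% of all tested genes were lower. In the upper run 30 of the 35 were lower and 5 higher, with a median of -0.36, where 48.4% of all tested genes were lower. Over all tested genes the median differences were -0.011 and 0.011. Higher in the lower run and lower in the upper run were 23 genes, 7 were lower in both (Fabp3, Cpt1b, Acaa2, Eci1, Etfb, Pdk4 and Acot1), 1 was higher in both (Dgat1) and 4 were lower in the lower run and higher in the upper (Angptl4, Cpt1a, Plin2 and Ucp2). All 12 beta-oxidation enzymes were lower with praliciguat in the upper run, and 10 of the 12 were higher in the lower run. Without overlap of the libraries on either side, 16 of the 35 were above placebo in the lower run and below it in the upper run, as were 7.75% of all tested genes. The opposite, below and then above, was found in 0 of the 35 and in 5.56% of all tested genes. Counting each run alone, 19 of the 35 had both praliciguat above both placebo libraries in the lower run (26.3% of all tested genes) and 28 had both below in the upper run (21.4%). Red blood cell markers leaned the same way as the 35: all 5 were higher with praliciguat in the lower run (median 0.32) and lower in the upper run (median -0.66). The medians of the 7 endothelial markers were -0.088 and -0.35 and those of the 7 macrophage markers -0.27 and 0.998, in the lower and the upper run. The part of these cells in the 35 differences was not tested.

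**Figure D5:**
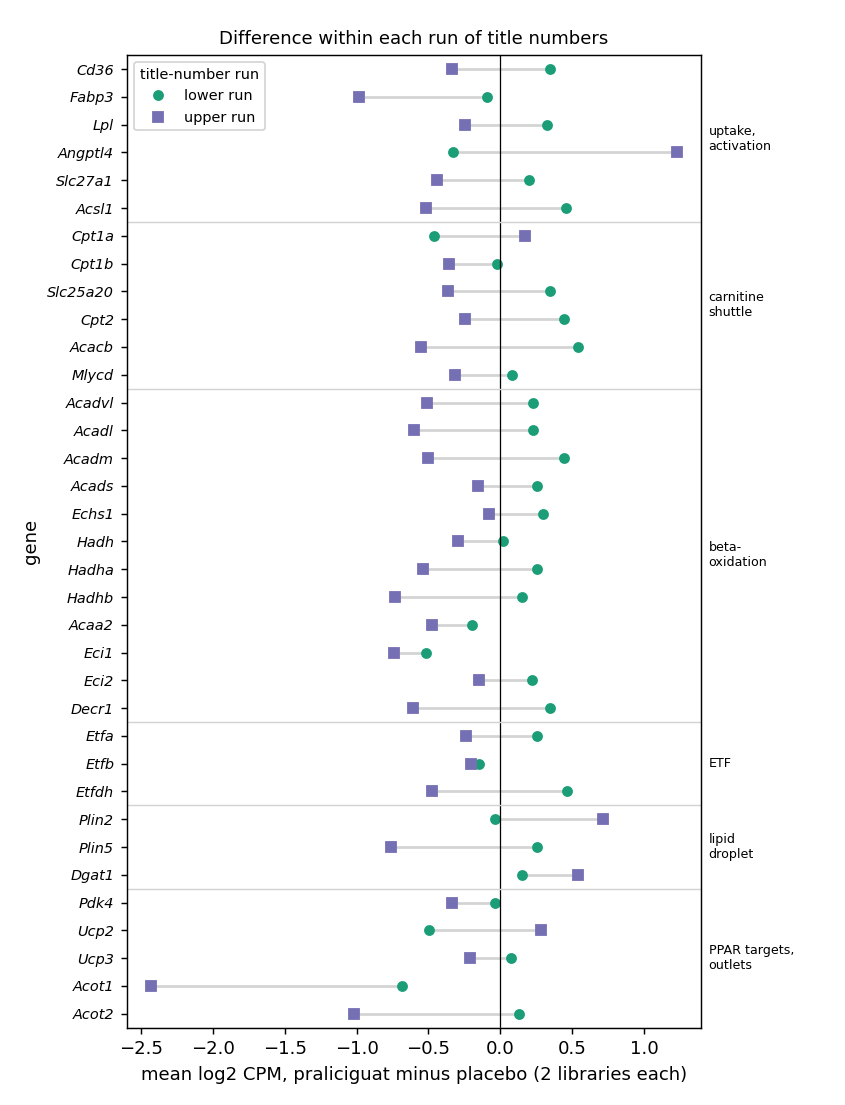
Difference in mean log2 CPM, praliciguat minus placebo, within the lower run (circles) and the upper run (squares) of the title numbers for each of the 35 genes, 2 libraries on each side. Most circles lie right of 0 and most squares left of it, while Eci1, Acaa2 and Etfb lie left of 0 in both runs.

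The test of that unlikeness, the group by run term of an edgeR fit over all genes, passed for 0 of the 35 at an adjusted p under 0.05, with a lowest edgeR adjusted p of 0.145. Over all tested genes it passed for 2 (0.0147%), Irs2 and 0610040J01Rik, which are named here after their values were seen. At an unadjusted p under 0.05 it was met by 19 of the 35 (54.3%), against 16.3% of all tested genes, and 30 of the 35 terms were below 0, against 47.6%. The 2 lowest p among the 35 belonged to Plin5, with a term of -1.02 ± 0.18 (SE; edgeR unadjusted p = 0.000429), and Acsl1, with -0.97 ± 0.17 (edgeR unadjusted p = 0.000439). Acsl1 differed by 0.46 in the lower and by -0.52 in the upper run. Hadhb (-0.88 ± 0.17), Decr1 (-0.95 ± 0.18), Acot2 (-1.15 ± 0.23) and Etfdh (-0.93 ± 0.19) followed, each with an edgeR adjusted p between 0.15 and 0.165. By role, an unadjusted p under 0.05 was met by 4 of 6 genes of uptake and activation, 4 of 6 of the shuttle, 6 of 12 beta-oxidation enzymes, 2 of 3 of the flavoprotein, 1 of 3 of the droplet and 2 of 5 of the last group. Leaving out 1 library at a time, 18 to 23 of the 35 met it, where 8.68 to 22.1% of all tested genes did, and 30 of the 35 terms lay below 0 each time. The number past the adjusted threshold was 6 of the 35 without placebo replicate 3 (Acacb, Acot2, Etfdh, Hadhb, Plin2 and Plin5, with 403 over all tested genes) and 0 without any other single library. Each corner of this fit rests on 2 libraries.

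The summed TPM of the 35 genes was 1.21, 1.16, 0.918 and 0.794% of all transcripts in praliciguat replicates 1 to 4, against 1.11, 1.2, 1.21 and 1.18% in placebo replicates 1 to 4. Slow fibre markers did not share this split within praliciguat. Their summed TPM was 447, 707, 575 and 534 TPM in praliciguat replicates 1 to 4, against 3241, 2129, 1330.2 and 2812 TPM in placebo replicates 1 to 4, lower with praliciguat in both runs. Of the 8 markers, 7 were lower without overlap between the groups, where 2.54% of all tested genes were. The same 7 were lower at an edgeR unadjusted p under 0.05, where 3.78% of all tested genes were. At an adjusted p under 0.05 edgeR called 0 of the 8, while limma-voom and edgeR with the run as a block each called Tnnt1, and edgeR without placebo replicate 3 called 5 (Atp2a2, Myl2, Tnnc1, Tnni1 and Tnnt1). Which of these 8 markers DESeq2 called is not given here. Of these 8 markers 0 met an unadjusted p under 0.05 in the group by run term. Myh2, the myosin of fast oxidative fibres, had a log2 fold change of -1.56 ± 0.22 SE (edgeR adjusted p = 0.0776), also without overlap. Its group by run term was -0.82 ± 0.32 (SE; edgeR unadjusted p = 0.0319, edgeR adjusted p = 0.269). Myh2 differed by -1.14 in the lower and by -1.95 in the upper run. Within the lower run the median difference was -3.16 for the slow fibre markers and 0.20 for the 35 genes, and within the upper run -2.55 and -0.36. Of the 5 skeletal muscle markers, 1 met an unadjusted p under 0.05 in the group by run term. It was Mb, with -1.04 ± 0.39 (SE; edgeR unadjusted p = 0.0301, edgeR adjusted p = 0.266). Mb differed by 0.29 in the lower and by -0.81 in the upper run. The part of fibre type in the 35 levels was not tested.

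Other genes of the pathway. A further 74 genes of fatty acid handling, among them peroxisomal enzymes, lipases, ketone and propionate enzymes and the PPAR, ERR and PGC-1 regulators, were all tested. In edgeR 0 passed at an adjusted p under 0.05, 2 were higher and 0 lower at an unadjusted p under 0.05 (1.95% and 3.78% of all tested genes), 49 had a fold change above 0 and 25 below, and the median was 0.09. The 2 higher were G0s2, the inhibitor of adipose triglyceride lipase, at 26.5 ± 13.7 CPM with praliciguat and 12.9 ± 3.82 CPM in placebo (1.05 ± 0.43 SE on the log2 scale, edgeR adjusted p = 0.794), and Abcd2, a peroxisomal transporter of fatty acyl-CoA, at 76.8 ± 8.32 CPM with praliciguat and 58.1 ± 14.2 CPM in placebo (log2 fold change 0.40 ± 0.17 SE, edgeR adjusted p = 0.832; SD, n = 4 each). Next by p were Gpihbp1, which anchors lipoprotein lipase on capillary endothelium, at 37.8 ± 3.70 CPM with praliciguat and 46.9 ± 9.48 CPM in placebo, and Rxra, the partner receptor of the PPARs, at 237 ± 47.0 CPM with praliciguat and 188 ± 29.8 CPM in placebo (SD, n = 4 each). Acsl6, an acyl-CoA synthetase, and Fabp4, the binding protein of fat cells, macrophages and capillary endothelium, differed by 0.26 ± 0.13 and 0.55 ± 0.28 on the log2 scale (SE). In the group by run term 29 of the 74 (39.2%, against 16.3% of all tested genes) met an unadjusted p under 0.05 and 0 passed after adjustment. Within the lower run their median difference was 0.25 and within the upper run -0.054.

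The 5 of these 74 with the lowest p in that term, named after their values were seen, were Esrrb, Esrrg, Bdh1, Pdk1 and Ppara. Esrrb and Esrrg encode the ERR beta and gamma receptors and Ppara the PPAR alpha receptor, all regulators of oxidative genes. Esrrg had 26.9, 26.6, 10.0 and 12.2 CPM in praliciguat replicates 1 to 4, against 17.3, 18.3, 24.0 and 36.2 CPM in placebo replicates 1 to 4. Ppara had 53.1, 42.4, 29.2 and 31.1 CPM in praliciguat replicates 1 to 4, against 41.0, 34.4, 52.3 and 63.0 CPM in placebo replicates 1 to 4. Esrrb had 12.6, 11.8, 2.22 and 2.84 CPM in praliciguat replicates 1 to 4, against 9.18, 6.68, 9.98 and 15.3 CPM in placebo replicates 1 to 4. These receptor genes, picked for this term, were lowest in praliciguat replicates 3 and 4. Their terms were -2.03 ± 0.28 for Esrrg (edgeR adjusted p = 0.118), -1.28 ± 0.22 for Ppara (edgeR adjusted p = 0.14) and -2.95 ± 0.37 for Esrrb (edgeR adjusted p = 0.0909), with SE. Bdh1, the mitochondrial enzyme that interconverts ketone bodies, had 6.47, 10.8, 0.175 and 0.213 CPM in praliciguat replicates 1 to 4, against 13.1, 6.30, 11.9 and 24.7 CPM in placebo replicates 1 to 4. Its levels in praliciguat replicates 3 and 4 are limited by depth, as they lie near the 0.0875 to 0.134 CPM that a count of 0 allows. Pdk1, a kinase of pyruvate dehydrogenase like Pdk4, differed by 0.30 in the lower and -0.68 in the upper run. None of the 5 passed the adjusted threshold. Of all 9 PPAR, RXR, ERR and PGC-1 genes on the list, 5 met an unadjusted p under 0.05 in the term, the 3 above with Ppargc1a (-1.42 ± 0.32 SE) and Rxra (-0.70 ± 0.22 SE). The other 4 did not, with -0.21 ± 0.18 for Esrra, -0.29 ± 0.20 for Ppard, 0.38 ± 0.55 for Pparg and 0.20 ± 0.21 for Ppargc1b (SE).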

How the data were processed

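Per the labels' protocols, RNA came from frozen muscle by Tri Reagent, and libraries were stranded and from mRNA (KAPA kit). FastQC, Trimmomatic, STAR 2.5.3a, RSEM 1.2.28 and build mm10 are named in the submitters' processing notes. Which strand setting RSEM used: not given in the sources used here. Overlapping antisense genes are therefore uncertain. For every library the authors deposited a table with RSEM expected counts, TPM and effective length by gene symbol, per the file headers. Deposited FPKM values were not used.

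After rounding of the expected counts, edgeR 4.0.16 in R 4.3.3 gave the tests (filterByExpr filter, TMM scaling, robust quasi-likelihood F test, Benjamini-Hochberg over all tested genes, threshold 0.05), with the group as the only term. A second fit added the run of the title numbers and its product with the group. Shares were compared by exact permutation over 70 groupings. DESeq2 1.42.0, limma 3.58.1, other scalings and filters, log2(TPM + 1), log2(TPM + 0.1), the run as a block and each library left out were alternatives. The log2 CPM used a prior count of 2. The script was tested on simulated counts. On the TMM-adjusted scale a count of 0 allows 0.0875 CPM in the deepest library and 0.134 CPM in the shallowest (a limit of 3 counts, which covers counting error only). Promoters are RefSeq's, exon overlaps and shared stretches of 50 bases GENCODE's (release M21).

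The 35 genes, the further 74, the marker lists and the tests were chosen with earlier results of these data known. All 35 genes are named. Values in every library are given for the 2 genes of lowest p and the most abundant gene of each role, and for Cpt1b, Cd36, Lpl, Pdk4, Hadha and Hadhb. Replicate numbers follow accession order and pair no libraries.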

Additional observations from a re-analysis of the deposited data

Results flagged for a closer look

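Each of the 35 genes was examined in both groups for a library far from the other 3, judged by its gap to the nearest over the group's range (Dixon's test), and 8 of 70 such groups were past it. Chance alone flags about 1 in 20 groups. In placebo, replicate 2 was the highest for 3 enzymes of beta-oxidation: Eci1 at 186 CPM (the others 156 to 160.5), Eci2 at 129 CPM (the others 104 to 105) and Acaa2 at 358 CPM (the others 302 to 309). Placebo replicate 3 was the highest for 2 of the 3 lipid droplet genes, Plin2 at 67.1 CPM (the others 33.5 to 35.8) and Dgat1 at 21.9 CPM (the others 13.6 to 14.1). Placebo replicate 1 was the lowest for Acadvl at 524 CPM (the others 617 to 628). For Cpt1a, praliciguat replicate 3 was the highest of its group at 29.0 CPM (the others 14.3 to 16.6), and placebo replicate 4 the lowest of its group at 17.9 CPM (the others 20.9 to 21.3). Adipocyte markers in placebo replicate 3 summed to 916 TPM, against 239 to 321 TPM in the other placebo libraries.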

How the results depend on the processing

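Over all genes edgeR called 0 higher and 0 lower. DESeq2 called 13 higher and 111 lower, limma-voom 2 lower (Gdf11 and Tnnt1), the run as a block 3 lower (Dusp18, Pdlim1 and Tnnt1), an adjusted p under 0.1 gave 11 lower, and leaving out 1 library gave 0 to 5 lower (5 without placebo replicate 3). Of the 35 genes DESeq2 called 1 lower, Eci1, and 0 were called in the other settings. The edgeR adjusted p of Eci1 ranged from 0.189 to 0.65 with 1 library left out and was 0.0988 with the run as a block. The median log2 fold change of the 35 ranged from -0.178 to 0.043 with 1 library left out, and was above 0 without praliciguat replicate 3 (0.032) or 4 (0.043). Leaving out praliciguat replicates 3 and 4 together, chosen after seeing the data, gave 6 higher and 79 lower genes, 0 of the 35 called, and a median of 0.16. In that setting 16 of the 35 fold changes had the other sign. In the 18 planned settings 16 of the 35 genes kept their sign throughout and 19 did not. The group by run term passed for 2 genes over all, for 0 with DESeq2 size factors, without robust dispersion and with limma-voom, and for 0 to 403 with 1 library left out (403 without placebo replicate 3, 8 without praliciguat replicate 3), the last of these chosen after seeing the data. Of the 35 it passed for 0 to 6 with 1 library left out, 6 being without placebo replicate 3. The genes past the threshold without praliciguat replicate 3 included Ddx3y, Eif2s3y, Kdm5d and Uty, which lie on the Y chromosome. That fit leaves 1 praliciguat library in the upper run. The levels of these genes in each library were not examined here. The 4 shares passed in no setting. No paired analysis was possible because replicate numbers were given in accession order. Acot1, with as few as 15 expected counts, is limited by depth, while every other of the 35 had at least 306 in each library.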
